A study of Homo sapiens with 6 samples.

Results

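The genes described here encode 7 enzymes of cholesterol synthesis, HMGCS1, MVD, FDPS, FDFT1, SQLE, LSS and DHCR7, together with INSIG1, a regulator of the pathway. They were taken by symbol from the deposited count tables, which made 8 genes of the 23368 symbols listed, and all 8 were measured well above the detection floor. RNA-seq was carried out on NB4 cells, a long-established line of human acute promyelocytic leukemia (APL), left without treatment (not treated) or exposed for 24 h to 10 µM maltonis, a synthetic hydroxypyrone derived from maltol diluted in distilled water. Each group held 3 libraries, which the study describes as biological replicates, and all of them come from this single cell line. The question behind the comparison is which transcripts maltonis changes in these leukemic cells.

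Cholesterol is built from acetyl-CoA. The early enzymes of the pathway make mevalonate and then isoprenoid diphosphates, and the later ones join these into squalene and close it into a sterol. Isoprenoids made on the way also feed the prenylation of proteins and the synthesis of dolichol and coenzyme Q. Transcription of the enzymes is driven by the sterol regulatory element-binding proteins (SREBPs), which are carried from the endoplasmic reticulum to the Golgi by SCAP for activation when sterols are scarce. INSIG1 holds SCAP back when sterols are plentiful, and INSIG1 is itself an SREBP target. Proliferating leukemic cells use the pathway to supply membrane.

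The libraries held between 18492154 and 38205483 counts, so that 3 counts, the floor of detection, stood for 0.0828 to 0.160 CPM (counts scaled to a common library size after correction for composition). All 5 promyelocyte markers examined (MPO, PRTN3, AZU1, CTSG and CD33) were above 1 CPM, and of 9 markers of other cell types, EPCAM and PECAM1 were above 1 CPM in any library while 3, MS4A1 and HBB among them, had no count. Summed over the promyelocyte markers, the level was 13686 to 16182 CPM in not treated and 8554 to 9002 CPM in maltonis-treated libraries, and over the other markers 25.5 to 31.2 and 27.0 to 33.6 CPM. MPO, which made up most of the first sum, was at a log2 fold change of −0.98, CD33 at −0.51, and AZU1 and CTSG at 0.48 and 2.34 (FDR under 0.01 for these 4), while PRTN3, at 0.50 (FDR 0.0211), did not pass. The part of these shifts in the results that follow was not tested. The names of the count tables carry a code, here written as code A for replicate 1 of each group and code B for replicates 2 and 3, and the meaning of this code is not given in the sources used here. Of the 13209 genes tested with edgeR, 32.1% were lower and 31.9% higher after maltonis at a false discovery rate (FDR) under 0.01.

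Promoter sequences are shown first because SREBPs act on these promoters together with other factors, among them NF-Y, which binds the CCAAT box, and Sp1, which binds the GC box. Windows from 250 bases before to 50 after an annotated start were matched in RefSeq (GRCh38.p14) for 6 of the 8 genes. They were not matched for FDFT1 and SQLE. Each stretch below runs 5′ to 3′ on the strand of the gene, from 180 to 41 bases before the start, and contains every CCAAT match of its window. Capitals mark the CCAAT box, read either as CCAAT or, on the opposite strand, as ATTGG.
HMGCS1, chr5:43313453-43313592, minus strand: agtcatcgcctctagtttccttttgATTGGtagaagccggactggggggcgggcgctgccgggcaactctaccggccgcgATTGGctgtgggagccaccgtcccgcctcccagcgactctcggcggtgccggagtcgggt
MVD, chr16:88663132-88663271, minus strand: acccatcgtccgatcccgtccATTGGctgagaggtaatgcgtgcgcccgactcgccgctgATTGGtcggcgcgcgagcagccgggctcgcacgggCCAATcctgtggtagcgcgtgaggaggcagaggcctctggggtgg
FDPS, chr1:155308686-155308825, plus strand: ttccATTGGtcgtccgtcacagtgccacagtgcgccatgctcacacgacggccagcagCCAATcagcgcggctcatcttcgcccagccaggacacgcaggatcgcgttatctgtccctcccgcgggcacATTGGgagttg
LSS, chr21:46228815-46228954, minus strand: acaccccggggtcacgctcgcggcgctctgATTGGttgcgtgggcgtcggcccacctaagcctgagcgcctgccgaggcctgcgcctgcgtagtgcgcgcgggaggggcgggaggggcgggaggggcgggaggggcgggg
DHCR7, chr11:71448434-71448573, minus strand: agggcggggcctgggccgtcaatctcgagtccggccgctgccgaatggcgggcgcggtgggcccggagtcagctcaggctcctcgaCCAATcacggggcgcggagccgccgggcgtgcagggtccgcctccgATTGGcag
INSIG1, chr7:155297698-155297837, plus strand: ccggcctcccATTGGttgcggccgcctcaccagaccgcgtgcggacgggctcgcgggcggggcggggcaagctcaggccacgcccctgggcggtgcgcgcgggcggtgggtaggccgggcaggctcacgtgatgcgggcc

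A CCAAT box was present in all 6 matched genes, against 39.7% of all genes with a window, and in 6 of their 8 windows. Over the 35116 RefSeq windows, 34.6% held it at least once, 10.8% at 2 or more places and 3.26% at 3 or more. HMGCS1 and DHCR7 had 2 matches each, MVD and FDPS 3 each, and INSIG1 and LSS 1 each. The first match of HMGCS1 lay 155 and the second 100 bases before the start. The GC box, searched as GGGCGG on both strands, was found in all 6 genes as well, against 48.3% of all genes with a window, and in 7 of the 8 member windows, against 45.0% of all windows. LSS held 7 and INSIG1 6 of them, counting every start, so that neighbouring GC boxes can overlap. The pair of INSIG1 at 126 and 121 bases before the start shares a base, so its 6 matches are not all separate. The core of the sterol regulatory element, searched as TCACNCCA with N for any base, was in none of the member windows and in 3.95% of all windows, which says only that these letters are not in these stretches. HMGCS1 and DHCR7 each have another annotated window, in which no CCAAT box was found.

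**Figure D1:**
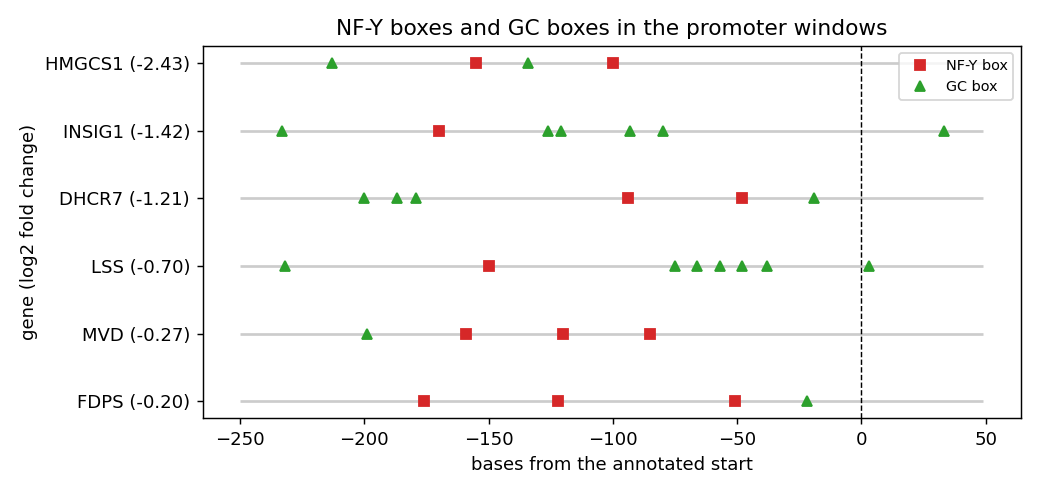
Positions of the CCAAT box (NF-Y box, red squares) and the GC box (green triangles) on either strand in the RefSeq promoter windows of the 6 matched genes, in bases from the annotated start (dashed line), with the log2 fold change of each gene in brackets. The windows of MVD and FDPS, the genes with the smallest change, hold 3 CCAAT boxes each, and those of HMGCS1 and INSIG1, with the largest, hold 2 and 1. In between, LSS (−0.70) holds 1 and DHCR7 (−1.21) holds 2.

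Most of these transcripts were downregulated in maltonis-treated cells. At an FDR under 0.01, 6 of the 8 genes were lower, none was higher, and MVD and FDPS did not pass, against the 32.1% and 31.9% of all genes tested that were lower and higher. The median log2 fold change of the 8 genes was −0.96, against 0.01 over all genes tested. For 7 of the 8, all 3 maltonis-treated libraries lay below all 3 not treated ones, as did 37.8% of all genes. Since 3 libraries against 3 cannot reach an exact permutation p under 0.1, single-gene statements rest on the fit across all genes. The 8 genes summed to 2349 ± 41.8 CPM (SD, n = 3) without treatment and to 1085 ± 6.59 CPM (SD, n = 3) with it. In bulk RNA, less RNA per cell and fewer cells with the RNA cannot be told apart.

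**Figure D2:**
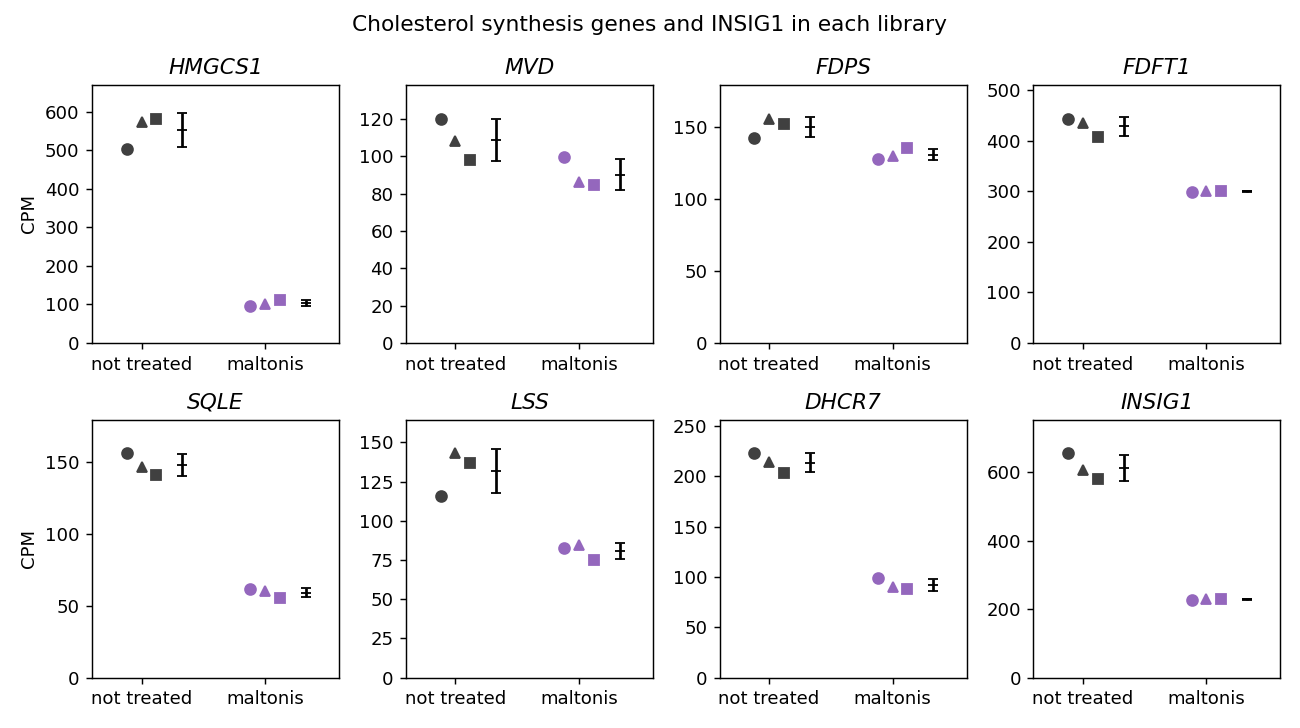
Level of each gene in CPM in the 3 not treated (grey) and the 3 maltonis-treated (purple) libraries, with circles, triangles and squares for replicates 1, 2 and 3 and with the mean and SD of each group in black; every axis starts at 0. The groups are apart in all panels but that of MVD, where the lowest not treated library, at 98.0 CPM, lies under the highest maltonis-treated one, at 99.7 CPM.

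HMGCS1, which encodes the cytosolic HMG-CoA synthase at the entry of the mevalonate pathway, had the largest change. Its level was 503, 575 and 583 CPM in not treated replicates 1, 2 and 3 and 95.4, 102 and 111 CPM in maltonis-treated ones. Every treated library lay far below every not treated one. The log2 fold change was −2.43 (standard error 0.0845, FDR 7.43e-08), a level 5.39-fold lower. Of all genes tested, 3.11% had a lower log2 fold change. The difference was −2.40 within code A and −2.45 within code B.

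MVD and FDPS, the enzymes that make the isoprenoid units, were the least changed. MVD, the decarboxylase that yields isopentenyl diphosphate, stood at 120, 108 and 98.0 CPM without and at 99.7, 86.1 and 84.5 CPM with maltonis, and the groups overlap. Its log2 fold change was −0.27 (standard error 0.0940, FDR 0.0267), with a 95% confidence interval from −0.49 to −0.06. FDPS, which makes farnesyl diphosphate at the branch point to sterols and prenyl groups, stood at 142, 156 and 152 CPM and at 127, 129 and 135 CPM. The groups of FDPS do not overlap, yet the change was small, at −0.20 (standard error 0.0589, FDR 0.0139), with a 95% confidence interval from −0.33 to −0.06. With code B alone both genes passed, at −0.28 for MVD (FDR 0.00213) and −0.22 for FDPS (FDR 0.00223). With library totals as the only scaling they were at −0.15 (FDR 0.179) and −0.08 (FDR 0.231). The values of FDPS are uncertain where reads were shared, since GENCODE 29 names 8 pseudogenes of it and an antisense gene, RUSC1-AS1, whose exons overlap with its own. RUSC1-AS1 held 11, 23 and 15 counts without and 49, 61 and 43 counts with maltonis, against at least 2468 counts of FDPS in any library. Exons of HMGCS1, FDFT1 and LSS overlap noncoding genes of the opposite strand that are not listed in the count tables, and their reads cannot be told apart if the counting ignored strand.

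Farther down, FDFT1, the squalene synthase that commits farnesyl diphosphate to sterols, fell moderately. Not treated replicates 1, 2 and 3 held 444, 435 and 408 CPM, and the treated ones held 299, 301 and 300.3 CPM. The maltonis-treated libraries were close to identical, with a coefficient of variation of 0.309%, while that of the not treated ones was 4.43%. With so few libraries in a group, this difference in spread was not tested. The log2 fold change was −0.51 (standard error 0.0556, FDR 3.88e-05).

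SQLE, the squalene epoxidase that is considered rate-limiting in the sterol part of the pathway, stood at 156, 147 and 141 CPM in not treated and at 61.5, 60.4 and 55.6 CPM in maltonis-treated cells. The groups of SQLE were far apart, with a log2 fold change of −1.32 (standard error 0.0674, FDR 4.47e-07). LSS, the lanosterol synthase that closes the rings, stood at 116, 143 and 137 CPM without and at 82.7, 84.8 and 75.2 CPM with maltonis. The groups of LSS do not overlap, and its log2 fold change was −0.70 (standard error 0.0896, FDR 0.000108). It was the member in which the codes differed most, with −0.48 within code A and −0.81 within code B, and not treated replicate 1 was the lowest of its group.

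DHCR7, which removes the last double bond to give cholesterol, stood at 223, 214 and 204 CPM without and at 99.3, 90.0 and 87.6 CPM with maltonis. All treated libraries were below 100 CPM and all others above 200 CPM, a log2 fold change of −1.21 (standard error 0.0683, FDR 7.76e-07).

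INSIG1, the only member that is no enzyme, had the highest mean CPM of the 8 genes without treatment, although HMGCS1 was slightly above it in replicate 3. It stood at 656, 606 and 581 CPM in not treated and at 227, 230 and 231 CPM in maltonis-treated cells. The treated libraries lay within a coefficient of variation of 0.870%, against 6.19% for the not treated ones, a difference in spread that was not tested. Its log2 fold change was −1.42 (standard error 0.0620, FDR 2.08e-07), with −1.53 within code A and −1.37 within code B.

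A limit of 2.5-fold was taken from the study, which set it beside the FDR and a minimum level in RPKM, and the minimum level was not applied here. HMGCS1, INSIG1 and SQLE were lower by more than this limit at an FDR under 0.01, 3 of 8 against 10.4% of all genes tested. SQLE passed by the smallest margin and only just, and DHCR7, at 2.32-fold lower, was the nearest gene that did not. With library totals as the only scaling, which raised the median log2 fold change of all genes from 0.01 to 0.13, HMGCS1 alone passed this limit, and with upper quartile scaling HMGCS1 and INSIG1 did. Relative to the median of all genes under library totals, SQLE and INSIG1 were at −1.34 and −1.44. SQLE also fell short of the limit without not treated replicate 1 (−1.30), without maltonis replicate 3 (−1.31) and with code B alone (−1.31).

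In order of log2 fold change, the genes ran from HMGCS1 through INSIG1, SQLE, DHCR7, LSS, FDFT1 and MVD to FDPS. To describe how neighbours in this order differ, the log2 ratio of the levels of each pair was taken in every library, which made 7 pairs. The order came from these same libraries, so the pairs and the direction of each difference were set by them. HMGCS1 stood apart from INSIG1, with log2 ratios between −0.38 and 0.00 without and between −1.25 and −1.06 with maltonis. The ratios of DHCR7 to LSS were also apart, at 0.58 to 0.95 without and 0.08 to 0.26 with maltonis, and so were those of SQLE to DHCR7 and of FDFT1 to MVD (two-sided exact permutation test, p = 0.1 for each of these 4 pairs, the smallest that 3 libraries against 3 allow, and 0.175 after Benjamini-Hochberg adjustment over the 7 pairs). The ratios overlapped between the groups for INSIG1 to SQLE (exact permutation test, p = 0.3), LSS to FDFT1 (exact permutation test, p = 0.3) and MVD to FDPS (exact permutation test, p = 0.6). For these 3 pairs a difference of the changes was not resolved, and overlap with 3 libraries against 3 does not show that the changes were equal. The changes of LSS and FDFT1 were −0.48 and −0.57 within code A and −0.81 and −0.49 within code B.

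The unequal changes altered the make-up of the transcripts within the set. HMGCS1 supplied 21.3% to 25.3% of the summed CPM of the 8 genes in not treated libraries and 8.73% to 10.3% in maltonis-treated ones. FDFT1 went the other way, from 17.7% to 18.8% without and from 27.4% to 27.8% with maltonis, although its own level was lower. FDPS supplied 6.01% to 6.59% and then 11.7% to 12.5%. The share of SQLE was 6.13% to 6.61% and then 5.15% to 5.63%, and that of DHCR7, 8.84% to 9.44% and then 8.11% to 9.09%, overlapped between the groups.

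Levels between genes were compared per length, as RPKM, here CPM per 1000 bases of all annotated exons in GENCODE 29. Without treatment INSIG1 was highest, at 168 ± 10.4 RPKM (SD, n = 3), followed by HMGCS1 at 118 ± 9.38, FDFT1 at 82.5 ± 3.66 and DHCR7 at 51.3 ± 2.32 RPKM (SD, n = 3). FDPS, SQLE, MVD and LSS lay at 40.3 ± 1.90, 34.4 ± 1.74, 23.1 ± 2.36 and 18.2 ± 1.98 RPKM (SD, n = 3). MVD and LSS did not overlap, with every MVD library at or above 20.8 RPKM and every LSS library at or below 19.8 RPKM. After maltonis INSIG1 and FDFT1 led at 62.8 ± 0.547 and 57.7 ± 0.178 RPKM (SD, n = 3). FDPS moved to the next place with 35.1 ± 1.03 RPKM (SD, n = 3). On this length HMGCS1, at 21.8 ± 1.65 RPKM, was no longer distinguishable from DHCR7, at 22.2 ± 1.49 RPKM (SD, n = 3 for each), by the spread of the libraries. On the length of the longest RefSeq-linked transcript the 2 genes did not overlap after maltonis. Every HMGCS1 library was then at or below 31.6 RPKM and every DHCR7 library at or above 32.8 RPKM. The order depends on the length used: with the longest RefSeq-linked transcript, INSIG1 still led without treatment, at 204 ± 12.6 RPKM, but FDFT1, at 113 ± 0.349 RPKM, led after maltonis and INSIG1, at 76.2 ± 0.663 RPKM (SD, n = 3 for each), was behind FDPS.

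**Figure D3:**
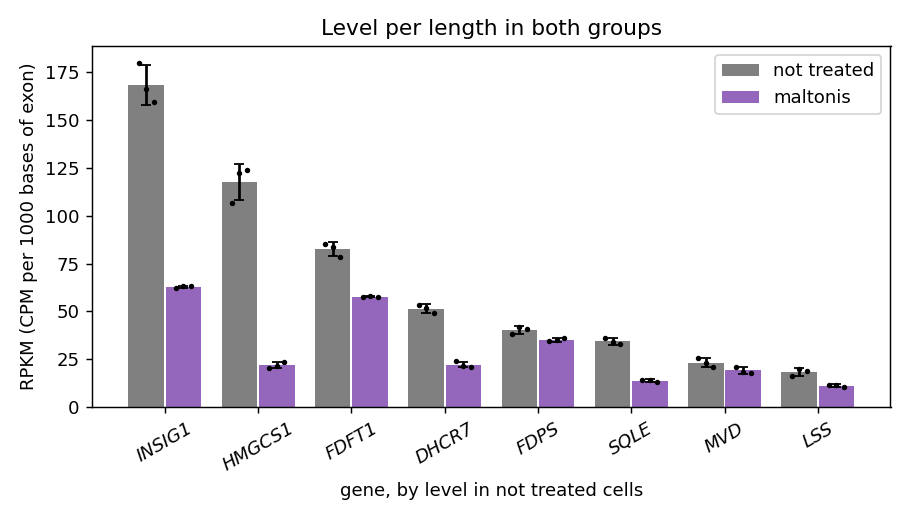
Level per length in RPKM, with bars for the mean, error bars for the SD and points for the 3 libraries of each group, for not treated (grey) and maltonis-treated (purple) cells, in order of the level without treatment. INSIG1 falls from 168 to 62.8 RPKM and HMGCS1 from 118 to 21.8 RPKM, while FDPS stays between 34.3 and 41.8 RPKM in all libraries.

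Other enzymes of cholesterol synthesis were examined as a list of 14 genes, all of them tested. Of these, 9 were lower and none higher at an FDR under 0.01, against 32.1% of all genes tested lower and 31.9% higher, and the median log2 fold change was −0.47. CYP51A1, the sterol demethylase that acts on lanosterol, stood at 199.5 ± 3.46 CPM without and at 17.6 ± 0.483 CPM with maltonis (SD, n = 3), and its log2 fold change was −3.50 (standard error 0.0603, FDR 1.92e-08). Its reads are uncertain where 3 named pseudogenes and overlapping genes share them. MSMO1, a sterol methyl oxidase, was at −1.01. The genes that did not pass were PMVK, TM7SF2, HSD17B7, SC5DL (now SC5D) and C14orf1 (now ERG28), with log2 fold changes between −0.09 and 0.24. In the steps around HMGCS1, MVD and FDPS, ACAT2, MVK and IDI1 fell by 0.50, 0.70 and 0.44 on the log2 scale.

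**Figure D4:**
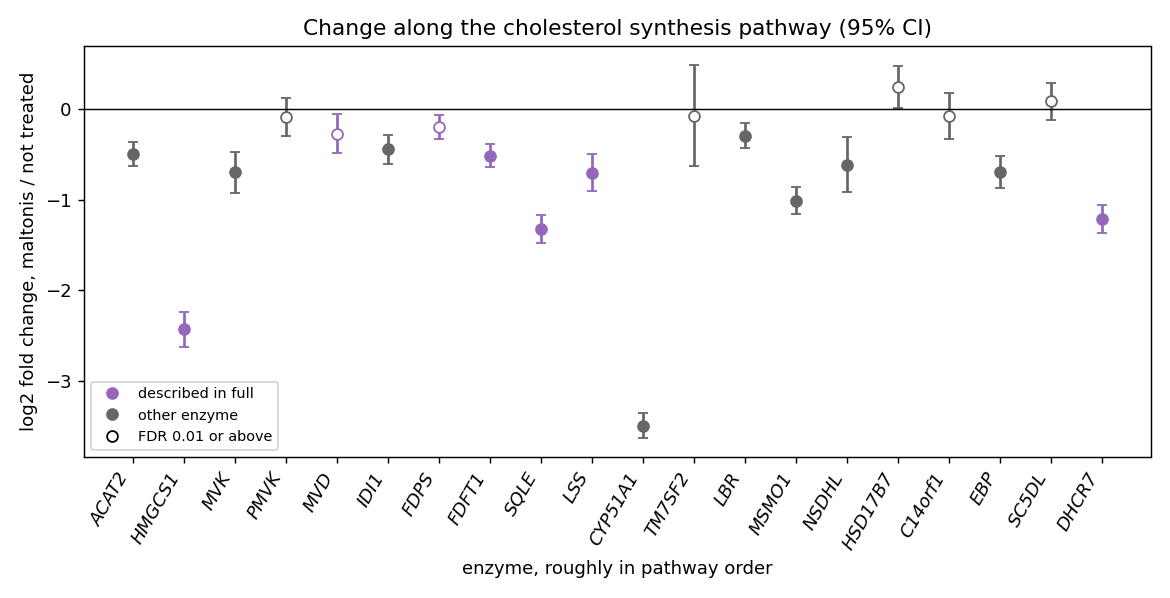
Log2 fold change (maltonis over not treated) with its 95% confidence interval for 20 enzymes arranged roughly from acetyl-CoA to cholesterol, with the genes described in full in purple, the others in grey and open symbols at an FDR of 0.01 or above. CYP51A1 (−3.50) and HMGCS1 (−2.43) lie far below the rest, and no filled symbol lies above 0.

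Genes that control SREBP activation were examined next. Of 9 genes tested, 2 were lower and none higher, against 32.1% of all genes tested lower and 31.9% higher, and the median log2 fold change was −0.04. The SREBP genes themselves, SREBF1 and SREBF2, were at 0.04 (FDR 0.785) and 0.09 (FDR 0.491), and SCAP and INSIG2, the paralog of INSIG1, at −0.11 (FDR 0.238) and 0.14 (FDR 0.335). INSIG2 stood at 17.4 ± 2.89 CPM without and 19.3 ± 1.82 CPM with maltonis (SD, n = 3). MBTPS2, a protease that releases active SREBP, fell to −1.24 (standard error 0.219, FDR 0.000834).

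Of the genes of sterol uptake, transport and storage, 8 of 13 were higher and 3 lower, against 31.9% and 32.1% of all genes tested, with a median log2 fold change of 0.52. LIPA, the lysosomal acid lipase, was at 1.63, and NPC2 and NPC1, which export cholesterol from lysosomes, at 1.41 and 1.31. LIPA is uncertain, because its exons overlap on the opposite strand with those of IFIT2, an interferon-induced gene with a log2 fold change of 3.38. Exons of NPC1 overlap likewise with those of RMC1, a symbol that is not listed in the count tables. The strand setting of the counting is not given in the sources used here. The lower genes were GRAMD1B, a sterol transfer protein, at −2.34, LRP8, a lipoprotein receptor, at −1.21, and SCARB1, the HDL receptor, at −1.06. Of 9 genes of the liver X receptor (LXR) response and sterol efflux, 5 were tested, with 2 higher, none lower and a median of 0.28, where 31.9% of all genes tested were higher. These were ABCA1, the cholesterol efflux pump, at 1.38 (standard error 0.0655, FDR 3.19e-07) and LPCAT3 at 0.78. The others, ABCG1, SMPDL3A, CYP27A1 and CH25H, were too low to be tested, with SMPDL3A at 0 counts in every library and CH25H at 1 count in a single library.

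The isoprenoid branch, which draws on the product of FDPS, had 5 of 13 genes higher, 5 lower and a median of 0.20, near the 31.9% and 32.1% over all genes tested. Without maltonis replicate 2 or replicate 3 the higher genes were 3. DHDDS, RABGGTA and GGPS1 were highest at 0.73, 0.67 and 0.45, and FNTB, NUS1 and PDSS1 lowest at −1.36, −1.12 and −0.93. Fatty acid synthesis, which is partly under SREBP control, had 9 of 11 genes lower, 2 higher and a median of −1.02, where 32.1% of all genes tested were lower and 31.9% higher. ACSS2, which makes acetyl-CoA from acetate, was at −2.28, the desaturase FADS2 at −2.09 and the elongase ELOVL6 at −1.63. ELOVL5 and FADS1 were higher, at 0.50 and 0.47, and FADS1 and FADS2 share overlapping exons on opposite strands. Exons of FADS2 also overlap with those of FEN1 on the same strand.

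**Figure D5:**
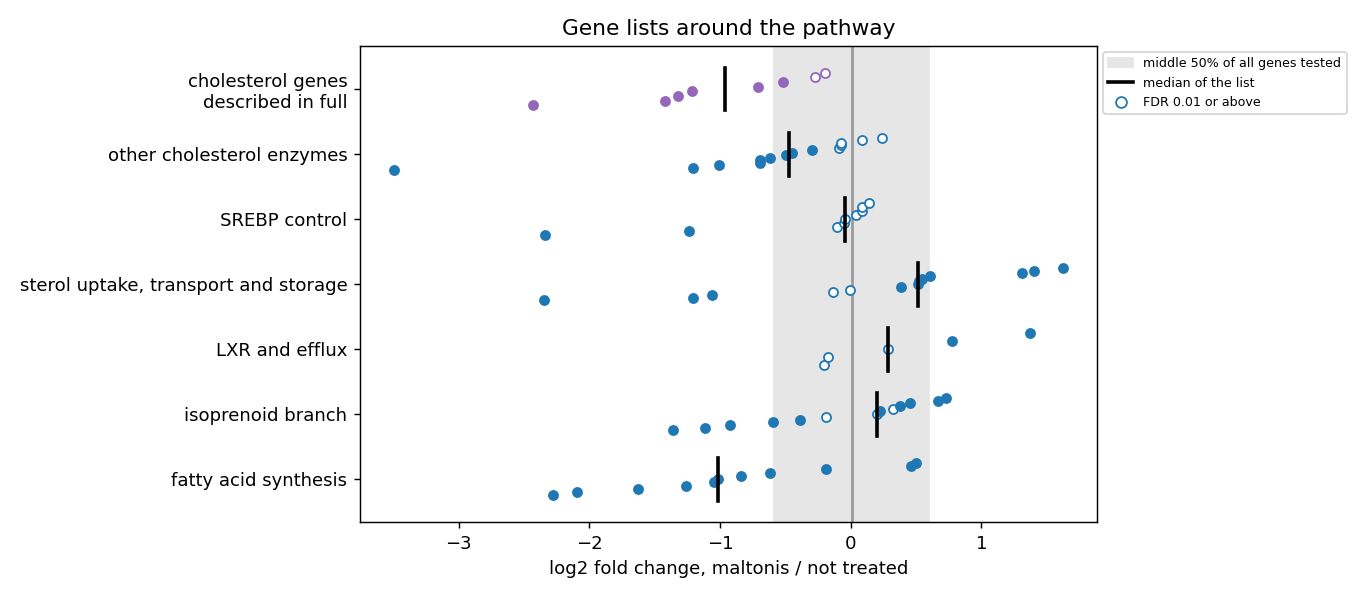
Log2 fold changes of the genes described in full (purple) and of the tested genes of 6 lists around the pathway (blue), with open symbols at an FDR of 0.01 or above, black bars for the median of each list and a grey band for the middle 50% of all genes tested, from −0.58 to 0.60. The medians of the genes described in full (−0.96) and of fatty acid synthesis (−1.02) lie left of the band, and those of the other 5 lists lie within it.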

How the data were processed

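Total RNA of 6 NB4 libraries was sequenced from ribosomal RNA-depleted stranded libraries. The authors deposited, for each library, unnormalized whole-number counts of reads per gene symbol. Per the labels, the submitters' processing notes name TopHat, Bowtie2, HTSeq and hg19; versions, annotation and the strand setting are not given in the sources used here. Replicates differed by more than sampling noise (chi-square per degree of freedom at least 4.33), so each counted as 1 sample.

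Differential expression used edgeR 4.0.16 under R 4.3.3 (TMM scaling, filterByExpr, quasi-likelihood test, no covariates) and Benjamini-Hochberg adjustment over all 13209 genes tested; every FDR comes from this fit unless stated. The scripts were tested on simulated data. Alternatives were other scalings, DESeq2 1.42.0, no filter, a replicate block, code B alone and each library left out. GENCODE 29 (GRCh38) gave lengths and overlaps, and no coordinates were transferred to hg19. Named from each list were the called genes with the largest changes, up to 3 in each direction, plus the genes described in full and genes at the floor; genes not called, marker genes, ACAT2, MVK, IDI1, INSIG2, IFIT2, RUSC1-AS1, ABCG1 and CYP27A1 were named after their values were seen. Some genes of the lists are counted but not reported here by name. Members and lists were chosen with earlier results of these data known.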

Additional observations from a re-analysis of the deposited data

How the results depend on the processing

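Over 13 alternatives, HMGCS1, INSIG1, SQLE, DHCR7, LSS and FDFT1 stayed lower at an FDR under 0.01 in each, and HMGCS1 ranged from −2.52 to −2.31. MVD and FDPS stayed lower but lay on either side of the threshold. Upper quartile scaling put MVD at −0.19 (FDR 0.0988) and FDPS at −0.11 (FDR 0.116), and library totals put them at −0.15 (FDR 0.179) and −0.08 (FDR 0.231). With the replicate block both passed, at −0.27 for MVD (FDR 0.00142) and −0.20 for FDPS (FDR 0.00744), so that 8 of the 8 genes were lower. With code B alone they were at −0.28 and −0.22, and the DESeq2 test put FDPS at −0.20 (adjusted p = 0.00608). Without 1 library, MVD ranged from −0.37 to −0.21 and passed without not treated replicate 3 or maltonis replicate 1, and FDPS ranged from −0.25 to −0.18 and passed without not treated replicate 1. Same-numbered libraries deviated together with correlations of 0.272, 0.0696 and 0.144 across genes. Not treated replicate 2 correlated best with maltonis replicate 3 (0.101), so the numbers were not taken to pair the samples. The correlations between the groups followed the code. They were 0.272 within code A, 0.0696 to 0.144 within code B, and −0.209 to −0.138 between the codes. Deviations were taken from the mean of the 3 libraries of each group, so they cancel out within a group. The negative values between the codes are therefore not independent of the positive ones within them. The main fit held no covariate for the code. With library totals as the only scaling, 1 gene in place of 3 was lower beyond 2.5-fold, and 1 of the other cholesterol enzymes was called higher in place of none. Leaving out maltonis replicate 2 or 3 left 3 higher genes in the isoprenoid branch in place of 5, with a range of 3 to 4 over the 6 libraries. The cause was not tested. The longest RefSeq-linked transcript as length raised each level per length by the ratio of the lengths, by more than the SD between libraries. Depth did not limit the 8 genes, each with at least 1191 counts in a library.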

Other observations

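The genes whose levels over the 6 libraries lay closest to the median profile of the 8 cholesterol genes, by the root mean square difference of log2 CPM centred on the not treated libraries, were MRPL21, LPCAT2, TICAM1, NF2 and ZDHHC14, at 0.0321, 0.0355, 0.0379, 0.0385 and 0.0413. None of them belongs to the lists around the pathway: MRPL21 encodes a mitochondrial ribosomal protein, LPCAT2 a phospholipid acyltransferase, TICAM1 an adaptor of Toll-like receptors, NF2 the protein merlin and ZDHHC14 a palmitoyltransferase. DHCR7 was the nearest member, at 0.183, and 837 other genes lay nearer to the profile than DHCR7 did. For HMGCS1, at 1.05, this number was 9021. TICAM1 was near 1 CPM, at 0.795 ± 0.00902 CPM without and 0.407 ± 0.0145 CPM with maltonis (SD, n = 3).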
